A study of Mus musculus with 2031 samples.

Results

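Angiotensinogen, encoded by Agt (ENSMUSG00000031980.9), was followed through single cells of the mouse cortex and hippocampus. It is 1 of 49671 genes in the counts, and it was picked because earlier results of these data showed its level and its share of positive cells to differ between astrocyte subtypes and areas. Those values are therefore given as a description, without a test. The animals were C57BL/6J mice without a transgene or treatment, at postnatal day 56. Cortical suspensions 1C and 2C each came from 1 animal, the animals being littermates, and hippocampal suspensions 1H and 2H were each pooled from 4 littermates of separate sets. Brain area and litter cannot be told apart here, and a suspension is the replicate, so that n = 2 per area. Cells were sorted as positive for the astrocyte surface protein ATP1B2 with the ACSA-2 antibody and as negative for O1, which marks oligodendrocytes. They were made into full-length Smart-seq2 libraries, which carry no molecular tags. Types and the astrocyte subtypes AST1 to AST5 are those the authors found by clustering these same counts. Agt is itself among the paper's subtype markers, with expression in AST1 and AST3 and low or absent expression in AST2.

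Angiotensinogen is a secreted protein of the serpin family that has no known protease-inhibitor activity. Renin cleaves angiotensin I from its amino-terminal end, angiotensin-converting enzyme (ACE) shortens that peptide to angiotensin II, and angiotensin II acts through AT1 and AT2 receptors on vessels, kidney and neurons. The liver supplies most angiotensinogen of the blood, while within the brain astrocytes are known as its main source.

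On the mouse genome GRCm38, Agt lies on the minus strand of chromosome 8, chr8:124556534-124569706, with 5 exons and 1891 exonic bases in the single transcript of the Gencode M21 annotation. No other gene overlapped it, and the nearest gene, Cog2, was 4526 bases away. The start of its coding sequence is shown because it holds the hormone itself. It lies in exon 2, chr8:124564450-124564566, minus strand, and runs 5′ to 3′ from the annotated start codon of a protein of 482 residues; after 29 codons, capitals mark the 10 codons of angiotensin I, of which the first 8 are angiotensin II.
Agt coding start: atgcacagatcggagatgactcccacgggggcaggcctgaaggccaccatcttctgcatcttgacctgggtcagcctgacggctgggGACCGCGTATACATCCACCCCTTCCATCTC

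Counts of 2030 cells were used, of which 1982 carried a type and 1781 were astrocytes. Each cell held between 600758 and 3238215 gene counts, and the median per suspension lay between 1351590 and 1545140, so 1 Agt count stood for less than 2 CPM, the number of counts scaled to a common library total. No 2 cells held identical counts. The labels of the astrocytes were checked with 10 astrocyte markers. Their summed level had a median between 32169 CPM in AST4 and 46635 CPM in AST1, against 250 to 2920 CPM in the non-astrocytic types, and the median sum of mural, endothelial, microglial, oligodendrocyte or neuronal markers was 0 in all 5 subtypes. Intervals below are 95% Wilson intervals. They take cells as independent and cover the counting of cells only, so they leave out the spread between suspensions. Counts are PCR reads without molecular tags and are not independent molecules.

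Agt RNA was found in astrocytes and almost nowhere else in this sort. At least 1 count was present in 872 of 1781 astrocytes, 48.96% (46.6 to 51.3%), and in 3 of the other typed cells, 1.49% (0.509 to 4.30%). In single suspensions the share of astrocytes ran from 31.9 to 65.9%. Astrocytes held 99.97% of the Agt counts of all typed cells. Among mural cells, the pericytes and smooth muscle cells of vessels, 1 cell of 2H held a single count, which was 0.746% of the mural cells (0.132 to 4.11%). None of 30 endothelial cells had a count, which allows a share of up to 10%, and none of 11 microglia, which allows up to 27.3%. The other 2 positive cells were an oligodendrocytic cell with 1 count and a neuronal cell of suspension 2H with 421 counts, or 287 CPM. That neuronal cell had 437 CPM of astrocyte markers beside a median of 432 CPM for its type.

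Among groups of at least 5 cells, AST3 and AST1 held Agt most often in all 4 suspensions. In AST1, 42.1% of 57 cells in 1C, 43.6% of 55 in 2C, 67.2% in 1H (61.4 to 72.5%) and 68.98% in 2H (63.3 to 74.2%) had a count, with a mean of 55.5% ± 14.6 (SD, n = 4). Both hippocampal suspensions lay above both cortical suspensions. In AST3, the shares were 56.5% in 1C (48.6 to 64.1%), 49.01% in 2C (41.2 to 56.9%), 84.6% of 65 cells in 1H and 80.5% of 82 in 2H, with a mean of 67.7% ± 17.6 (SD, n = 4). Here too the areas did not overlap, and hippocampal AST3 had the highest shares measured. In AST2, a subtype found mostly in cortex, 25.0% of 240 cells in 1C and 21.6% of the cells in 2C (17.2 to 26.7%) had a count, against 6 of only 10 cells in 1H and 36.4% of 22 in 2H. The intervals of these small hippocampal groups were wide, 31.3 to 83.2% in 1H and 19.7 to 57.05% in 2H. AST4, a subtype found almost only in hippocampus, had a count in 39.02% of 41 cells in 1H and 35.4% of 48 in 2H, which is below every hippocampal share of AST1 and AST3. In AST5, 2 of 26 cells were positive.

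**Figure D1:**
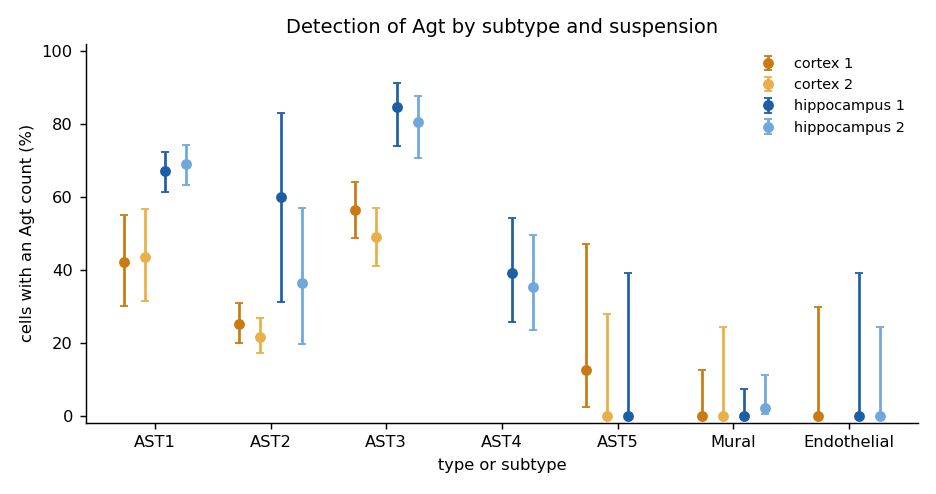
Share of cells with at least 1 Agt count (vertical axis, percent) by subtype or type (horizontal axis) and suspension (colors), for groups of at least 5 cells; bars are 95% Wilson intervals. Hippocampal points lie above cortical points in AST1, AST2 and AST3, and mural and endothelial points lie at 0% or at 2.13%.

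The order of AST3, AST1 and AST2 was the same in each suspension. Cells of all 4 suspensions were clustered into these subtypes, and the paper uses Agt as a marker of them. The suspensions are therefore no independent support for a lower share in AST2. AST3 exceeded AST1 in 4 of 4 suspensions, by 14.4, 5.37, 17.5 and 11.5 percentage points in 1C, 2C, 1H and 2H, with a mean of 12.2 ± 5.15 (SD, n = 4). AST1 exceeded AST2 in 4 of 4 suspensions, by 19.7 points ± 10.6 (SD, n = 4), and in 1H, with 10 AST2 cells, by only 7.16 points. AST1 exceeded AST4 by 28.1 points in 1H and 33.6 points in 2H. AST2 and AST4, which share only the hippocampal suspensions, had overlapping intervals there, with AST2 higher in 1H (6 of 10 cells against 39.02%) and close to AST4 in 2H (36.4% against 35.4%). Neighbors AST3 and AST1 differed by less than the SD over all 4 suspensions of either subtype, but that SD includes the difference between areas. Within cortex and hippocampus the SD (n = 2) was 1.08 and 1.29 points for AST1 and 5.29 and 2.92 points for AST3. The order of AST3 and AST1 is read within suspensions.

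By CPM, the level of Agt gave another order of AST3 and AST1 than its share of positive cells in the cortical suspensions, but not in the hippocampal suspensions. The CPM of the summed counts was 483 in 1C, 432 in 2C, 915 in 1H and 927 in 2H for AST1, and 363.6, 306.7, 1262 and 1002 for AST3. AST3 thus lay at 0.75 and 0.71 times AST1 in the cortical suspensions and at 1.38 and 1.08 times in the hippocampal suspensions. The median among positive cells was 791 CPM in 1C and 696 CPM in 2C for AST1, against 427 and 467 CPM for AST3. Cortical AST3 therefore held Agt in more cells than cortical AST1, at a lower level per positive cell. AST2 had 163.3, 120.7, 536 and 306.8 CPM in 1C, 2C, 1H and 2H, below AST1 in 4 of 4 suspensions, and AST4 had 338.8 CPM in 1H and 307.3 CPM in 2H. Relative to the spiked-in ERCC RNAs, AST3 exceeded AST1 in all 4 suspensions, by 1.05, 1.10, 1.46 and 1.23 times, so that the cortical order depends on the scale. On both scales AST2 had less than AST1 in every suspension.

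The subtypes that held most of the Agt counts differed between areas. In the cortical suspensions AST3 held 48.8% and 49.5% of the Agt counts with 33.4% and 30.3% of the astrocytes, while AST2 held 29.4% and 30.4% with 52.1% and 56.7% of the astrocytes. In the hippocampal suspensions AST1 held 70.1% of the Agt counts in both, with 68.96% and 64.02% of the astrocytes. Ranked among all genes by summed counts, Agt stood between places 77 and 110 in hippocampal AST3 and AST1, but at 986 and 1432 in cortical AST2.

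Hippocampal astrocytes had more Agt than cortical astrocytes of the same subtype. Over all typed astrocytes, 37.5% in 1C and 31.9% in 2C were positive, against 65.9% in 1H and 65.7% in 2H, a difference of 31.1 points. Within subtypes the difference was 25.2 points in AST1, 24.9 in AST2 and 29.8 in AST3. The AST2 value rests on 10 and 22 hippocampal cells and was 13.1 points without 1H and 36.7 points without 2H. With these 3 subtypes weighted equally the difference was 26.6 points, so most of the difference was present within subtypes. The fitted log2 fold change of the summed counts, hippocampus over cortex, was 1.04 ± 0.23 (SE) in AST1, 1.44 ± 0.23 in AST2 and 1.81 ± 0.23 in AST3. No p is given for these values, and whether they differ between subtypes was not tested. With 2 suspensions per area, an exact permutation test could not have passed the usual limit in any case.

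Plates and reagents were recorded for each cell. Each plate held cells of a single suspension, so the difference could not be recomputed within plates. It was recomputed within the batches named next, for levels with at least 5 cells of each area. The levels divide the cells of the same 4 suspensions, so they are not independent and add no replicates. Inside each level the suspension still goes with the area, and a part of batch in the difference was not tested. Hippocampal shares were higher in every level of the index kit (4 in AST1, 4 in AST3), of the sequencing pool (8 and 8), of the block used for reverse transcription (3 and 3) and of the number of thaws of the template-switching oligo (2 and 2). They were higher in 9 of 10 runs of reverse transcription for AST1 and in 10 of 10 for AST3, and in 9 of 11 and 12 of 13 library preparations, where the lowest difference was −39.6 points. The block used for library PCR had a single level with both areas. That level held all cortical cells of AST1 and AST3 but a minority of the hippocampal cells. Hippocampal shares were higher there by 24.7 points in AST1 and 22.2 points in AST3. The remaining hippocampal cells had no cortical cells of the same block beside them. Among plates, the positive share of all astrocytes ranged from 28.3 to 45.5% in 1C, from 26.2 to 37.8% in 2C, from 38.5 to 75.0% in 1H and from 58.5 to 75.0% in 2H. A single 1H plate therefore fell within the cortical range.

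Most single astrocytes had either no Agt count or at least 100. Cells without a count may have held RNA that was lost before amplification, which was not tested. Of 1781 astrocytes, 909 had no count, 28 had 1 to 9 counts, 47 had 10 to 99, 18.7% of the cells had at least 100 but fewer than 1000, and 464 cells had at least 1000. Few cells thus lay between no count and at least 100 counts, and the highest reached 9227 CPM. After every cell was thinned to 50000 counts, 46.3% were still positive. Thinning draws again from amplified reads, so it does not bear on RNA lost before amplification.

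**Figure D2:**
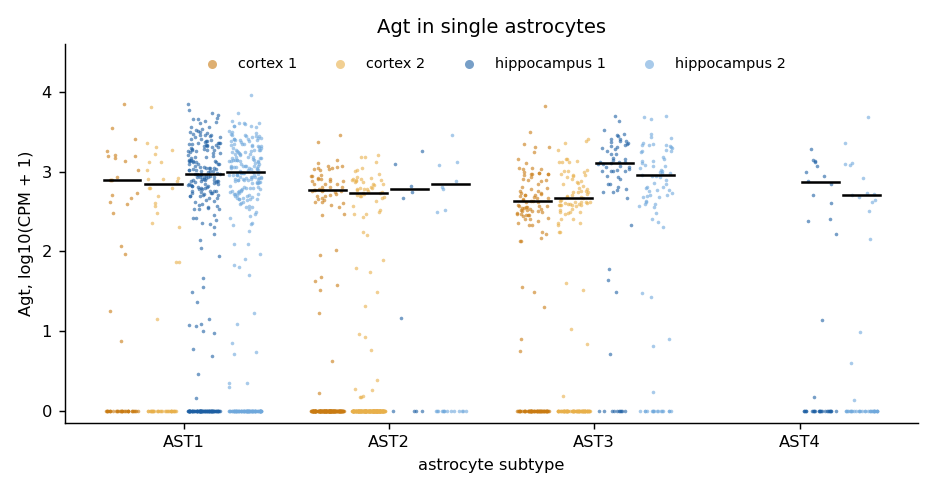
Agt in each of the astrocytes of AST1 to AST4, as log10(CPM + 1) (vertical axis), by subtype (horizontal axis) and suspension (colors), for groups of at least 5 cells; black bars mark the median of cells with a count. In each group a band of cells at 0 is separated from a band that lies mostly above 100 CPM and reaches up to 9227 CPM, with few cells between.

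Most genes of a like mean level were present in more cells than Agt. The mean of Agt over all astrocytes was 526 CPM, and 67 other genes had a mean within 10% of it. All 67 were detected in more astrocytes than Agt, at a median of 69.96% and a range from 51.1 to 99.8%, and Agt had the highest coefficient of variation over cells among the 68, 1.76 beside a median of 1.14 and a highest other value of 1.73. These values mix areas and subtypes that differ in Agt, so they were also taken inside each subtype and suspension of at least 40 cells. Within AST1, all like genes of a suspension (71, 59, 21 and 29 in 1C, 2C, 1H and 2H) were found in more cells than Agt, and Agt had the highest coefficient of variation in each, 2.20, 2.21, 1.32 and 1.25. In AST3, 7.95, 4.85, 15 and 0% of the like genes were found in fewer cells than Agt in 1C, 2C, 1H and 2H, and 0, 6, 2 and 0 genes had a higher coefficient of variation. In cortical AST2, where Agt is low, 3.47% and 23.5% of the like genes were found in fewer cells, and in AST4 10.2% in 1H and 3.54% in 2H, with some genes of higher variation in each of these 4 groups.

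**Figure D3:**
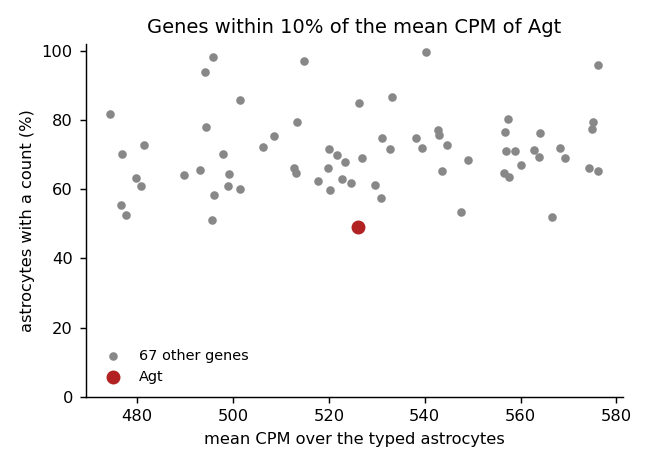
Share of the typed astrocytes with a count (vertical axis, percent) against the mean CPM (horizontal axis) for Agt (red) and the 67 genes within 10% of its mean (gray). Agt, at 48.96%, lies below all of them.

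Cells with and without Agt differed little in depth and markers in the median over groups, while single groups varied. Over 13 groups of a subtype and a suspension, the ratio of medians, with over without Agt, had a median of 1.01 for gene counts, 1.02 for the number of genes detected and 1.03 for summed astrocyte markers. It ranged from 0.667 to 1.16 for gene counts and from 0.985 to 1.19 for astrocyte markers, which were higher with Agt in 9 of 13 groups. The median sum of each of the 5 lists of other types was 0 in cells without Agt in all 13 groups, apart from mural markers in 1 group.

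The genes whose detection went with that of Agt inside a subtype and suspension were then ranked. Detection was compared by phi, the correlation of 2 yes-or-no values, in cells thinned to 500000 counts, over 12 groups and 5861 genes. Ranking used the 6 groups of 1C and 1H (828 cells), and the 6 groups of 2C and 2H (893 cells) gave the values to set beside it. Most relations were weak and did not carry over, since over all genes the correlation between the 2 sets of phi was 0.054 (across genes, which are not independent). Of the 10 highest genes, 8 were above 0 in the other suspensions, with a median phi of 0.049, beside a median of 0.008 for all genes, which 7 of the 10 exceeded. When 2C and 2H did the ranking, 4 of the 10 highest were above 0 in 1C and 1H, with a median of −0.029, and 2 genes were shared with the first ranking.

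At both ends a gene kept its place. Nnat (neuronatin, a small membrane protein of the endoplasmic reticulum) was highest of all genes in both sets, with phi 0.183 and 0.137, and was positive in 11 of 12 groups. In AST1, 54.8% of cells with Nnat and 26.9% of cells without it held Agt in 1C, 53.6% and 33.3% in 2C, 77.6% and 47.4% in 1H, and 73.7% and 58.9% in 2H. Over the 12 groups phi of Nnat ran from −0.012 in AST3 of 2H, where 78.9% and 80% held Agt, to 0.307 in AST1 of 1H. It was 0.152, 0.183 and 0.251 in AST3 of 1C, 2C and 1H, and 0.03 and 0.133 in AST2 of 1C and 2C. Chrdl1 (chordin-like 1, a secreted binder of bone morphogenetic proteins) was lowest in both sets, with phi −0.147 and −0.124, and negative in 10 of the 11 groups that had a value. In cortical AST3, 38.7% of cells with Chrdl1 and 68.5% of cells without it held Agt in 1C, and 35.7% and 59.3% in 2C. In AST1 of 1H, where 19 cells had Chrdl1, the values were 57.9% and 67.5%. The nuclear receptor gene Nr2f2 had phi 0.167 and 0.118, positive in 12 of 12 groups, and Cables1, a gene linked to cyclin-dependent kinases, had 0.122 and 0.104. Lrig1, Il33, Tmx1, Lrrc4c, Rpl34-ps1, Arxes2 and Dhrs3 completed the highest 10, with values between −0.006 and 0.067 in the other suspensions, and Rpl34-ps1, a ribosomal pseudogene, may share reads with its parent gene. Kcnk1, Bax, Aldh1a1 and Phkg1 completed the lowest 5, with values between −0.053 and 0.003 there. In sparse counts these relations are weak, and none was tested.

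**Figure D4:**
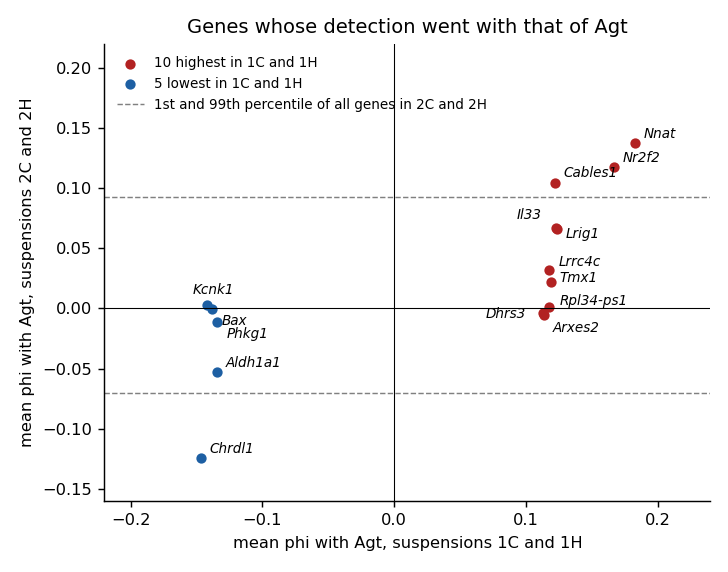
Mean phi with Agt in suspensions 1C and 1H (horizontal axis) and in 2C and 2H (vertical axis) for the 10 highest (red) and 5 lowest (blue) genes, which were chosen on the horizontal axis; dashed lines mark the 1st and 99th percentile of 5861 genes on the vertical axis. Nnat, Nr2f2 and Cables1 lie above the upper line and Chrdl1 below the lower line, while most other named genes lie near 0.

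The genes most like Agt in level across types and suspensions were ranked as well. Over 26 sums of at least 5 cells, the correlation of log2(CPM + 1) with Agt was 0.986 for Pcdh9, a protocadherin, 0.959 for Nat8f4, 0.952 for Cyp4f14, 0.943 for Bmpr1b and 0.942 for Chil1. These sums contrast astrocytes with other cells, and sums of 1 suspension share animals and preparation. Over the 17 astrocyte sums alone, Pcdh9 still had 0.960. There Cd81 was highest with 0.972, although over all 26 sums it had 0.677.

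The rest of the angiotensin pathway was then read from a list of 27 genes, Agt included. In these cells RNA of the precursor was abundant, while RNA of renin and of the AT1 and AT2 receptors was not found. Renin (Ren1), the receptor genes Agtr1a, Agtr1b, Agtr2 and Mrgprd, the protease genes Mme, Cma1, Cpa3, Ctsg and Klk1 had no count in any of 1781 astrocytes, which allows a share of cells with a count of up to 0.168% each and sets no limit on cells whose RNA was lost before amplification. Ace, the gene of ACE, was found in 4 astrocytes and Mas1, the receptor of angiotensin 1-7, in 2.

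Enpep and Anpep were found in the vessel cells, while Ace was found in no mural cell and in 1 of 30 endothelial cells, and no vessel cell had a count of Ren1, Agtr1a, Agtr1b, Agtr2, Mas1 or Mme. Enpep (aminopeptidase A, which makes angiotensin III) was present in 82.8% of mural cells, at 1749, 2245, 1703 and 1790 CPM in 1C, 2C, 1H and 2H, and Anpep (aminopeptidase N) in 65.7%. Each was also present in 36.7% of endothelial cells, at 398 and 35.7 CPM beside 1788 and 120.5 CPM in mural cells. These endothelial cells held mural markers too, with a median sum of 8373 CPM and a lowest of 1493 CPM, and the part of these in that share was not tested. Enpep was found in 10 astrocytes and Anpep in 2. For Enpep in mural cells the areas overlapped.

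Proteases and binding partners of broad use were found in astrocytes and, at other shares, in other cells. The cathepsin gene Ctsd was present in 88.5% of astrocytes, Ctsa in 57.7% and Atp6ap2, the (pro)renin receptor and a part of the vacuolar proton pump, in 42.8%, beside 61.2, 43.3 and 32.8% of the other typed cells. Per kilobase of exon, AST1 held Agt at 255.6, 228.6, 484 and 490.2 CPM in 1C, 2C, 1H and 2H, and Ctsd at 208.2, 258.5, 242.9 and 244.1 CPM. The level of Agt was thus the higher in 3 of 4 suspensions, by about 2 times in hippocampus. In AST3 it was 192.3, 162.2, 667 and 530 CPM per kilobase, below Ctsd (274.8 and 264.1 CPM) in 1C and 2C and above it (239.2 and 266.2 CPM) in 1H and 2H. In AST2, Agt stood at 86.3, 63.8, 283.6 and 162.3 CPM per kilobase, below Ctsd in all 4 suspensions. Atp6ap2 there had 94.9, 110.9, 184.7 and 94.7 CPM per kilobase, which is above Agt in cortex and below it in hippocampus. Nln, Rnpep, Lnpep, Agtrap, Dpp3, Thop1, Prep and Prcp were present in between 3.48 and 19.8% of astrocytes. Nln, the highest of these, was present in 2.49% of the other typed cells.

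**Figure D5:**
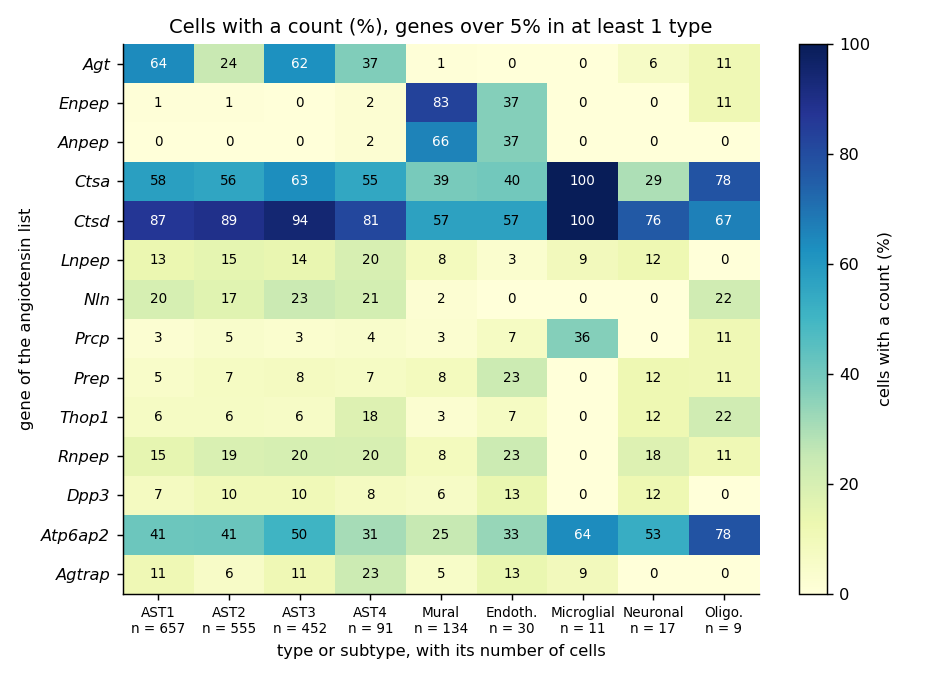
Share of cells with a count (color and printed number, percent) for the 14 genes of the angiotensin list found in over 5% of the cells of at least 1 type (rows), by subtype or type (columns, with the number of cells). Agt is highest in the columns of AST1 to AST4, Enpep and Anpep are highest in the mural and endothelial columns, and Ctsd and Atp6ap2 are spread over all of them.

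None of these partner genes was called between areas in edgeR, while DESeq2 called some of them. Summed counts per subtype and suspension were compared with edgeR (quasi-likelihood test, Benjamini-Hochberg adjustment over 18406 genes for astrocytes and 10614 for mural cells, called at an adjusted p under 0.05). Of all genes tested, 0.0109% were called higher in hippocampus and 0% lower in AST1, 0.147% higher and 4.01% lower in AST2, 0.0163% higher and 0.0109% lower in AST3, and 0% in either direction in mural cells. Of the pathway genes tested, 0 of 13 were called in each of AST1, AST2, AST3 and mural cells; at an unadjusted p under 0.05 there were 0, 0, 0 and 1, beside 5.3, 15.8, 4.13 and 9.05% of all genes in AST1, AST2, AST3 and mural cells. DESeq2 called 8.48, 23.1, 6.79 and 12.9% of all genes in these cells. Of the pathway genes it called 1 in each astrocyte subtype (Mas1, Nln and Mas1 in AST1, AST2 and AST3). In mural cells it called 3 (Agtrap, Atp6ap2 and Nln). Mas1 was found in only 2 astrocytes over all subtypes, so its calls rest on very few cells. The fitted log2 fold change of Enpep in mural cells, hippocampus over cortex, was −0.05 ± 0.16 (SE), with an adjusted p of 1.00 in edgeR. The median log2 fold change of the list was 0.08 in AST1, −0.02 in AST2, −0.03 in AST3 and −0.16 in mural cells. For all genes it was 0.18, −0.89, −0.04 and 0.24. The AST2 values rest on hippocampal sums of 10 and 22 cells. In these, 7931 and 11305 genes had a count in 1H and 2H, beside 18932 and 19311 in 1C and 2C. How far genes at 0 set the AST2 medians and calls was not tested.

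Factors known to act on Agt transcription formed a list of 15 genes, of which 11 were found in over 5% of the cells of a type. Nr3c1, the glucocorticoid receptor gene, was present in 36.1% of AST1, 35.3% of AST2 and 46.2% of AST3 cells. Stat3, which relays cytokine signals, was present in 40.9 and 39.7% of cortical AST3 cells in 1C and 2C and in 21.5 and 24.4% of hippocampal AST3 cells in 1H and 2H. In AST1 it ran the other way, with 15.8 and 12.7% in 1C and 2C and 25.1 and 23.7% in 1H and 2H. Thra and Thrb, genes of thyroid hormone receptors, were present in 23.4 and 13.7% of AST1 cells. Rela, Usf1, Usf2, Cebpd and Nfkb1 were present in between 5.5 and 14.6% of AST1 cells, and Cebpa and Cebpb in under 1% each. Hnf4a and Esr1 had no count in astrocytes. In edgeR 0 of 12 tested were called in any astrocyte subtype and 0 of 11 in mural cells, with 1, 0, 0 and 1 at an unadjusted p under 0.05 in AST1, AST2, AST3 and mural cells. DESeq2 called 2, 1, 0 and 1 of them. The numbers of both tools stand against the shares of all genes given above. The list's median log2 fold change was 0.02, −0.98, −0.02 and −0.13, with the limit given above for AST2.

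Agt is a serpin by sequence, and 10 other serpin genes were read beside it. Serpine2 (protease nexin 1, an inhibitor of thrombin) was the common serpin of astrocytes, present in 96.2% of AST1, 93.9% of AST2 and 98.2% of AST3 cells. Its level in AST2 was 1303 CPM in 1C, 1355 in 2C, 2800.5 in 1H and 2086 in 2H. The fitted log2 fold change in AST2 was 0.76 ± 0.12 (SE), with an adjusted p of 0.0116 in edgeR. Of 9 serpins tested there, Serpine2 was the 1 called higher, beside 0.147% of all genes, and 1 was called lower, beside 4.01% of all genes. At an unadjusted p under 0.05 there were 5, beside 15.8% of all genes. Of these Serpine2 was higher in hippocampus, while Serpina3n, Serpinb9, Serpini1 and Serpinb6a were lower, in small hippocampal sums. In AST3 the fold change of Serpine2 was 0.69 ± 0.12 (SE, adjusted p = 0.390) and in AST1 0.39 ± 0.12 (SE, adjusted p = 0.900). The call of Serpine2 in AST2 was lost without 1C, without 2C or without 1H, where its log2 fold change was 0.70, 0.79 and 0.62. The hippocampal sums held only 10 and 22 cells. Serpini1 was called lower in hippocampal AST2 (adjusted p = 0.0133). It had 14.1 CPM in 1C, 5.49 CPM in 2C and no count in the hippocampal sums, so no size is given, and the call was lost without 1C or 2C. No serpin was called in AST1, AST3 or mural cells in edgeR. There 1 in each had an unadjusted p under 0.05, beside 5.3, 4.13 and 9.05% of all genes. DESeq2 called 0, 2 and 2 serpins there, beside 8.48, 6.79 and 12.9% of all genes. In AST2 it called 7, beside 23.1% of all genes. The median log2 fold change of the serpins was −0.07 in AST1, 0.32 in AST3 and 1.00 in mural cells; in AST2 it is set by genes at 0 and is not given. Serpinh1, a chaperone of collagen, was present in 38.5% of AST1, 49.01% of AST2 and 58.6% of AST3 cells, and Serpinb6a in 10.8, 7.57 and 8.85%. The other 6 genes found in over 5% of the cells of a type were each present in under 5% of the cells of AST1, AST2 and AST3.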

How the data were processed

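RNA of single cells from 4 suspensions on 32 plates was measured with Smart-seq2. STAR 2.5.2b mapped the reads to GRCm38.p5 with Gencode M12 and ERCC sequences, and HTSeq gave the number per gene. What the authors deposited are these raw counts of each cell, neither normalized nor pooled; FastQC 0.11.4 is named in the submitters' processing notes. Types and subtypes are the authors' own. Of a series-wide table of the same counts, 9 columns were used as a check (8 equal to the files in total and in Agt) and 2022 were not used. A mural cell without its own file, with no Agt count in the table, was left out, and 33 cells that the copy of the list of types does not hold and 15 listed cells without a type entered no comparison of types. Library sizes hold gene counts only, without ERCC RNAs and without reads that were ambiguous or outside genes.

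CPM is the number of counts scaled to a common total of gene counts. Sums of counts per subtype and suspension (at least 5 cells) were fitted with edgeR 4.0.16 in R 4.3.3 (TMM, low-count filter, robust quasi-likelihood): 12 sums of AST1, AST2 and AST3 with 6 residual degrees of freedom (common biological coefficient of variation 1.27), and 4 mural sums with 2 (1.54). SE is that of the fitted log2 fold change. p-values measure the spread between sums of the same subtype and area, which come from separate suspensions. Astrocyte sums of the same suspension share animals and preparation but were treated as independent, so p and SE may be too small. Thinning, phi and descriptive values come from pandas 2.3.3, scipy 1.17.1 and numpy 2.4.6 under Python 3.11.15. Groups for phi held at least 40 cells, with at least 10 cells on each side, and genes found in 10 to 90% of thinned astrocytes. Both procedures were tested on simulated data. Against a count of 0, an upper limit is 3 counts of the total.

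Alternatives were the count threshold, thinning, cell weights, ERCC scaling, DESeq2 size factors, DESeq2 1.42.0, no filter, a replicate block and each suspension left out. The gene and the lists were chosen with earlier results of these data known. Named genes are those of the lists with a count in over 5% of the cells of a type, those called, the 10 highest and 5 lowest by phi, and the 5 most like Agt across types; list genes that were absent or rare, and Cd81, were named after their values were seen. A further gene of the pathway list is not reported here.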

Additional observations from a re-analysis of the deposited data

Results flagged for a closer look

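Cells outside the comparison of types also held Agt. Of the 33 cells that the copy of the list of types does not hold, all of suspension 1C, 12 had a count, 36.4% (95% Wilson interval 22.2 to 53.4%), beside 37.5% of the typed astrocytes of that suspension and 1.49% of other typed cells. The paper counted more astrocytes than the 1781 typed here, so some of these 33 cells are astrocytes by its types. Of 15 listed cells without a type, 2 had a count, 13.3% (3.74 to 37.9%). These cells were compared with typed cells only, and control wells were not analysed here.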

How the results depend on the processing

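The hippocampal excess of Agt kept its direction in every alternative tried for all typed astrocytes, AST1, AST2 and AST3. Among the changes of threshold, depth and weights, only equal weights of subtypes moved it by more than the spread between suspensions, to 26.6 points. Leaving out a suspension cannot, by construction, move the excess by more than that spread. Without each suspension in turn it ranged from 28.3 to 33.9 points (all), 24.3 to 26.1 (AST1), 13.1 to 36.7 (AST2, low without 1H and high without 2H) and 26.1 to 33.5 (AST3). The share of positive cells in AST4, 37.2%, fell to 33.9% at 10 or more counts and to 31.7% after thinning to 50000 counts. In these settings the shares of AST1, AST2 and AST3 moved by less than their spread, which includes the difference between areas, unlike that of AST4. By the SD within an area, thinning to 50000 counts also moved AST1, from 68.1 to 65.9% in hippocampus (SD 1.29) and from 42.9 to 41.1% in cortex (SD 1.08). It likewise moved AST2 in cortex, from 23.3 to 20.5% (SD 2.44), and AST3 in hippocampus, from 82.6 to 78.6% (SD 2.92), but not AST2 in hippocampus or AST3 in cortex. Leaving out a suspension cannot move any share by more than its spread. With the median cell of each suspension in place of the sum, the mean over suspensions was 284.3 CPM in AST1, 59.9 in AST2 and 0 in AST4, since the median cell of several suspensions held no count. AST4 stood at 0.351 times AST1 by CPM and at 0.442 times by ERCC counts.

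Calls across all genes were not stable, and the cause was not tested. In AST1, AST2, AST3 and mural cells edgeR called 2, 765, 5 and 0 genes and DESeq2 1561, 4251, 1250 and 1373. DESeq2 size factors in edgeR gave 1 in AST1, and so did no low-count filter. With each suspension left out in turn the range was 0 to 0 in AST1, AST3 and mural cells and 0 to 3845 in AST2, where 0 were called without 1C or without 2C, 1161 without 1H and 3845 without 2H; each lone suspension was then assumed to vary like the others. With the suspension number as replicate block, edgeR called 0 in AST1, 522 in AST2, 6 in AST3 and 0 in mural cells. The numbers mark no shared animal, and the deviations of same-numbered suspensions had correlations of −0.01, 0.002 and 0.021 in AST1, AST2 and AST3, so the suspensions share only a number.

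The fitted log2 fold change of Agt stayed between 0.99 and 1.10 in AST1, 1.09 and 1.69 in AST2 and 1.65 and 1.96 in AST3 over 9 settings. The median phi of the 10 highest genes in the suspensions not used for ranking was 0.049, and −0.029 when 2C and 2H did the ranking. Thinning to 50000 counts a cell, which left 46.3% of astrocytes with Agt, tests read depth only; 2 suspensions per area and small groups (AST2 in hippocampus, AST5, microglia) limit what can be compared.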

Other observations

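Gfap, the intermediate filament gene, and Unc13c, a gene of vesicle priming, were read beside Agt over all typed astrocytes of a suspension. Gfap was present in 23.9 and 22.2% of cortical astrocytes and in 70.5 and 71.3% of hippocampal astrocytes. In cortex, 45.5 and 44.1% of cells with Gfap held Agt, against 35.04 and 28.4% of cells without it. In hippocampus the values were 63.5 and 64.9% with Gfap and 71.6 and 67.5% without it. Unc13c was present in 18.0 and 22.6% of cortical astrocytes, and Agt was found in 25.3 and 19.5% of cells with Unc13c against 40.2 and 35.5% of cells without it. In hippocampus, where 15 astrocytes of each suspension had Unc13c, Agt was found in 80% of these in 1H and 60% in 2H, against 65.3 and 65.9% of cells without it. Within cortical AST3, Agt was found in 22.2 and 26.3% of cells with Unc13c and in 61.03 and 52.3% of cells without it. Within cortical AST2, which held more of the cells with Unc13c, the values were 25.4 and 17.98% with it and 24.9 and 23.2% without it. Averaged over groups of a subtype and a suspension, the mean phi with Agt was 0.024 in 1C and 1H and 0.062 in 2C and 2H for Gfap, and −0.037 and −0.062 for Unc13c. Slc1a3, a glutamate transporter of astrocytes, was present in 99.8% of the astrocytes of 1C and in 100% of those of the other suspensions, whether or not they held Agt.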
